A study of Xenopus laevis with 30 samples.

Results

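Xenopus laevis, the African clawed frog, is an allotetraploid. Its genome holds the chromosomes of a pair of ancestral frog species, called the L subgenome (long chromosomes) and the S subgenome (short chromosomes), and many genes are kept as an L and an S copy, known as homeologs. After such a genome merger the copies can share expression evenly, one can dominate, or one can be lost, and the balance may differ between genes and between tissues. The 100 homeolog pairs described here are those with the most unequal L and S messenger RNA levels in whole embryos at stage 10.5, the early gastrula. At this stage 3266 gene symbols of the deposited data had both an L and an S entry, and in 2167 of them at least one copy reached a mean of 10 RPKM over the 3 whole-embryo libraries. RPKM is reads scaled by the length of the gene model and by library depth, so it compares genes per length. The pairs were ranked by the absolute value of log2((mean L + 1)/(mean S + 1)), and the 100 with the highest score were taken.

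The series holds 30 libraries of poly(A) RNA from embryos of the Nasco strain, 3 per group, at stage 10.5 and at stage 12, the late gastrula. The controls of each stage were undivided embryos. The other 4 groups were half-embryos cut at stage 8, the blastula, and grown on to the stage of collection, each either a left, a right, a dorsal or a ventral one. Half-embryos were cut and cultured in dilutions of Barth's solution, and the growth protocol names Marc's Modified Ringers at 0.1x for embryos, so as the labels read the cut and the medium cannot be told apart between half-embryos and whole embryos. Left and right half-embryos each keep part of the dorsal and of the ventral side, whereas dorsal half-embryos carry the Spemann organizer, the signalling centre of the gastrula, and ventral half-embryos do not. Whether replicates are separate clutches is not in the labels, and p-values then cover no more than the spread among the sequenced samples, which may be technical.

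Libraries held 2091772 to 5813109 reads in listed genes, with whole-embryo libraries at 3532883 to 3739329 at stage 10.5 and 2091772 to 2920488 at stage 12. The sides of the half-embryos were as labelled: 8 of 8 copies of dorsal marker genes (such as goosecoid) and 8 of 8 of ventral marker genes (such as sizzled) separated dorsal from ventral libraries without overlap at both stages. Each table lists only genes with an average RPKM above 1, so a homeolog with no detectable RNA is not among these pairs, and the 100 are the most unequal of the pairs in which both copies were listed.

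The values in this and the following paragraph chose the pairs and are given as a description, with no test. Scores ran from 3.19 to 7.06 with a median of 3.73, against a median of 0.98 in the other 2067 pairs. The L copy was the higher one in 61 of the 100 pairs and the S copy in 39, and over all 2167 pairs L was higher in 54.6%. The higher copy had a median of 58.8 RPKM (16.7 to 393) and the lower copy a median of 2.44 RPKM (0.286 to 30.8). The last pairs inside the 100 were pcyt1a at 3.197 and sds at 3.186, and the first outside were ckap2-like at 3.185 and pgam5 at 3.178. The pairs on either side of the boundary are thus alike in bias.

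The S copy led most strongly in sf1, a splicing factor that recognises the branch point of introns. sf1.S stood at 181, 154 and 179 RPKM in the 3 whole-embryo libraries and sf1.L at 0.149, 0.281 and 0.429 RPKM. Over all 15 libraries of stage 10.5 sf1.L averaged 1.15 RPKM, so the whole-embryo values behind this rank are low ones for that copy. The next S-led pairs were ptgs2, the prostaglandin synthase also known as cyclooxygenase-2 (means ± SD of 138 ± 15.2 RPKM for S and 1.19 ± 0.444 for L, n = 3 here and below), the tubulin alpha-1A match LOC100497528 (192 ± 27.7 and 2.54 ± 0.675 RPKM) and the type I keratin krt (393 ± 99.2 and 9.01 ± 8.23 RPKM). These were followed by pygm (closest human protein PYGB, a glycogen phosphorylase), the kinetochore protein gene ndc80, the prostaglandin D synthase gene hpgds, carhsp1, the lysosomal membrane protein gene lamp2 and the small nuclear ribonucleoprotein gene snrpg. Both prostaglandin synthases among the members were thus S-led.

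Among L-led pairs the highest score belonged to rhoc, whose copies both match human RHOA, a small GTPase of the actin cytoskeleton. rhoc.L stood at 144 ± 13.5 RPKM and rhoc.S at 2.90 ± 0.964 RPKM. Next came eci1, an enzyme of mitochondrial fatty acid oxidation (64.5 ± 2.18 RPKM for L and 0.847 ± 0.163 for S). Further pairs among the 10 most L-led were the PNKD match LOC100488277, tstd3, the basement membrane protein gene nid2, the splicing factor gene smndc1, gpatch4, the calcium-binding protein gene cib1 and cth, which makes cysteine from cystathionine. In all of these the lower copy was a few RPKM or less and the higher copy lay between 48.7 ± 7.59 RPKM in nid2 and 144 ± 13.5 RPKM in rhoc.

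**Figure D1:**
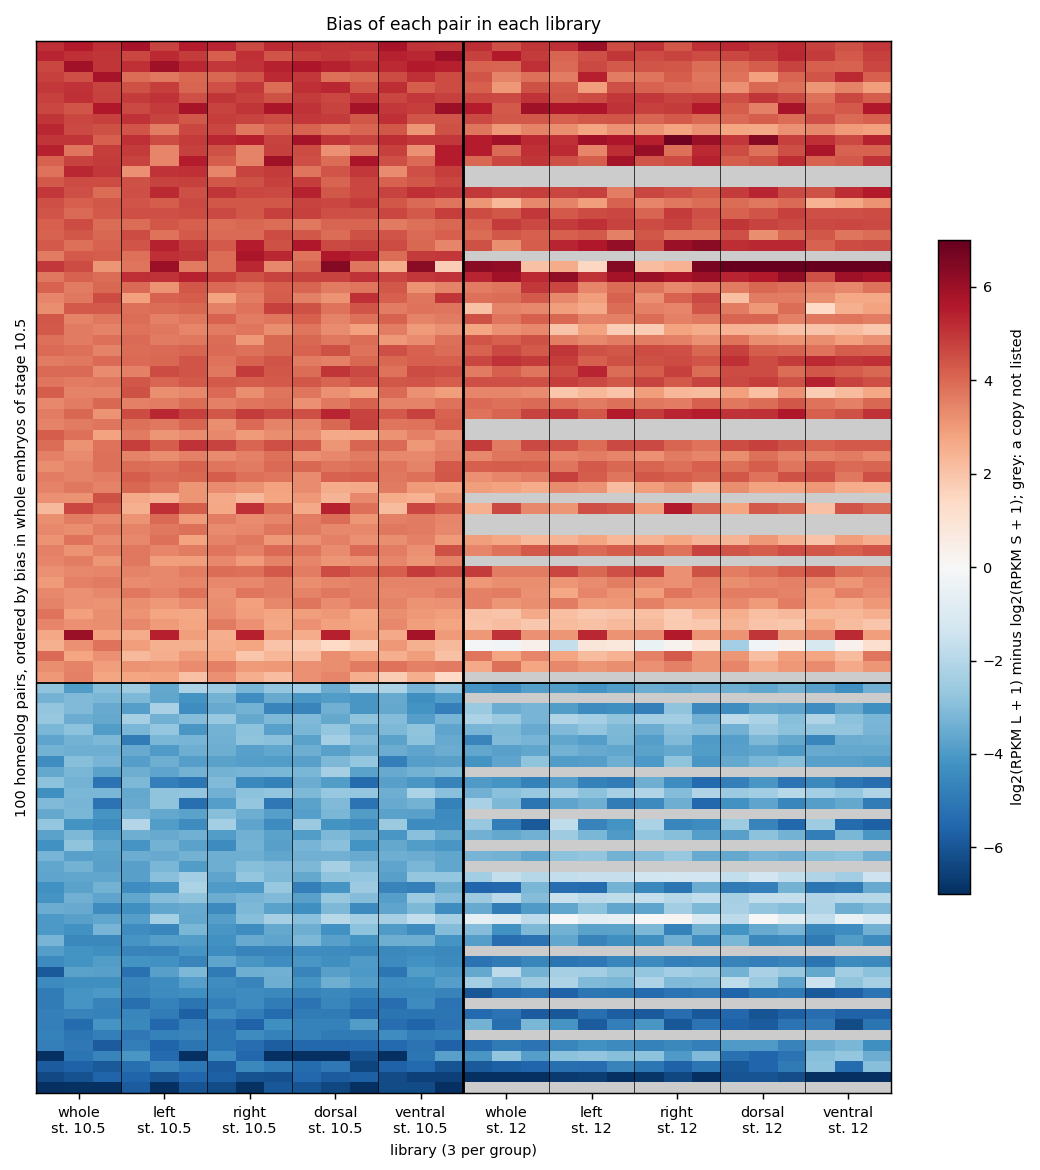
Bias of the 100 pairs (rows, ordered by their bias in whole embryos of stage 10.5) in the 30 libraries (columns, 3 per group), as log2(RPKM L + 1) minus log2(RPKM S + 1), with red for L higher, blue for S higher and grey where a copy was not listed at stage 12. The 61 L-led rows stay red and the 39 S-led rows stay blue in all stage 10.5 libraries, and 19 rows are grey at stage 12.

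The members covered many cell functions. Grouped by general knowledge of their human matches, a grouping made with the members known and therefore only descriptive, 19 were metabolic and redox enzymes (10 L-led and 9 S-led), 13 acted in RNA processing (6 and 7), 10 in protein turnover and membrane traffic (2 and 8), 9 in cytoskeleton, junctions and matrix (6 and 3), 8 in the cell cycle and chromosomes (5 and 3) and 6 in translation and ribosome assembly (4 and 2). The other 35, many of them of less defined function, held 28 L-led and 7 S-led pairs. Splicing components lay on both sides: sf1, snrpg and sf3b6 were S-led, and smndc1, rbm42 and the SF3A1 match LOC734097-like were L-led.

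Genes that pattern the gastrula were not among the members. Lists of textbook genes gave 0 of 9 organizer pairs, 0 of 5 ventral BMP pathway pairs, 0 of 7 mesoderm pairs, 0 of 6 endoderm pairs and 0 of 8 neural plate pairs. The most unequal of these were the geminin gene gmnn at a score of 2.50, the secreted antagonist gene cer1 at 1.69 and wnt8a at 1.55. Epidermal genes contributed 1 pair of 7 (krt), cell cycle genes 2 of 12 (mcm2, a subunit of the replicative helicase, and ccne2, cyclin E2), and proteasome genes 1 of 18 (psma3, a subunit of the core ring). Ribosomal protein genes gave 0 of 29 and mitochondrial energy genes 0 of 28, with highest scores of 2.25 (rpl23) and 3.11 (ndufs1). The 100 members are 4.61% of the 2167 pairs, so lists of this size would hold few members at that share, and the counts say nothing firmer than that.

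The members from the cell cycle and proteasome lists were all L-led. mcm2.L stood at 92.0 ± 17.4 RPKM and mcm2.S at 5.55 ± 1.29. ccne2.L stood at 156 ± 19.0 RPKM and ccne2.S at 15.2 ± 1.42, and psma3.L at 25.4 ± 5.72 RPKM and psma3.S at 1.62 ± 0.368. In the keratin pair, from the epidermal list, the S copy was the higher one.

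Values per length rest on the gene models. The deposited RPKM values were whole multiples of a step per gene, from which the reads behind them were recovered. In whole embryos of stage 10.5 the lower copies had a median of 74 reads over the 3 libraries (4 to 1454), and in 5 pairs fewer than 10. The model lengths of the copies differed 2-fold or more in 26 of the 100 pairs, against 17.8% of all 2167. The lower copy had the longer model in 18 of the 26, beside 251 of the 386 such pairs among all 2167. Counted in reads instead of RPKM, 96 of the 100 pairs still showed a 4-fold difference or more. The exceptions were snrpg (1.92-fold in reads, with an L model 12.2 times as long as the S model), ccne2 (3.65-fold), AK6 (3.65-fold) and eya3 (3.93-fold), in all of which the longer model belonged to the lower copy. Whether the bias of these 4 pairs reaches 4-fold therefore depends on the model lengths, and its size does so in every pair whose lengths differ.

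**Figure D2:**
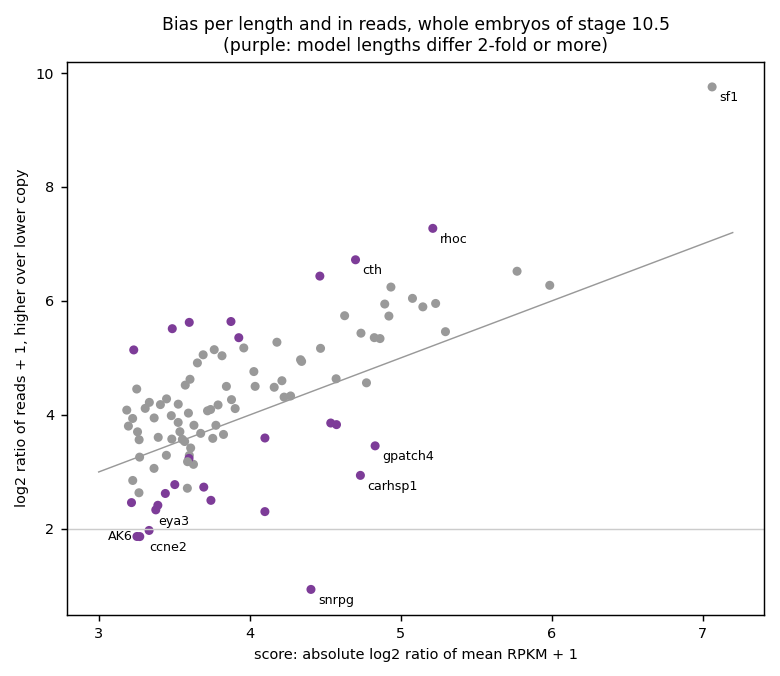
Score of each of the 100 pairs (x axis, absolute log2 ratio of mean RPKM + 1) against the log2 ratio of reads + 1 of the higher over the lower copy, summed over the 3 whole-embryo libraries of stage 10.5 (y axis); purple marks the 26 pairs whose model lengths differ 2-fold or more, and the grey horizontal line is 4-fold. Of the 100 points, 4 lie below that line, with snrpg lowest at 1.92-fold.

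Symbols were taken as pairs because the files name them so, and in 5 of the 100 pairs the closest human protein differed between the copies, against 1.80% of all 2167. Among them, in krt it was KRT19 for L and KRT17 for S, and in zar1 (zygote arrest, a maternal RNA-binding protein) ZAR1L for L and ZAR1 for S. In the histone H2B pair LOC733561 the copies matched different H2B genes, which are near-identical members of a large family, and slc35a4.L had no human match. For the 5 pairs the L and S entries may not be a homeolog pair in the strict sense.

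The 4 half-embryo groups gave 12 libraries of stage 10.5 that the ranking did not use, although they share replicate numbers with the whole embryos. In all 12 the same copy was higher as in whole embryos in 100 of 100 pairs, against 78.8% of all 2167 pairs. The bias was 4-fold or more in every one of the 12 in 95 pairs, against 11% of all. In the 3 whole-embryo libraries that ranked the pairs, 100 of 100 members were at 4-fold or more, against 13.3% of all. The gaps between members and all pairs therefore follow largely from the ranking, and show no persistence particular to the members. The median bias toward the higher copy was 3.87 in left, 3.86 in right, 3.89 in dorsal and 3.89 in ventral half-embryos, and 3.78 in whole embryos. The strong inequality was thus seen in all 4 kinds of half-embryo as well as in whole embryos. In sf1 the half-embryo libraries ranged from 154 to 225 RPKM for S and from 0 to 2.60 RPKM for L. Pairs with a library under 4-fold included sds and itpa-like (2 each), and arl13b and LOC101730334 (1 each).

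At stage 12 both copies were listed for 81 of the 100 pairs. In the other 19 the lower copy was not listed and the higher copy was, compared with 83 of all 2167 pairs whose lower copy was not listed. The 19 lower copies had averaged 1.02 to 3.07 RPKM over the 15 libraries of stage 10.5, close to the listing limit. They included sf1.L, ndc80.L, vps35.L (a subunit of the retromer, which sorts membrane proteins out of endosomes), lamp2.L, zar1.L and sds.S.

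In the 81 pairs with both copies at stage 12, the bias kept its direction in all 15 libraries in 79 pairs (67.1% of 2084 pairs with a copy at 10 RPKM did so) and was 4-fold or more in all 15 in 65 (8.4%). Over the 27 libraries that the ranking did not use, 79 pairs kept their direction throughout (64.1%) and 64 stayed at 4-fold or more (6.48%). As at stage 10.5, the gaps to all pairs follow largely from the ranking. The median bias toward the higher copy at stage 12 was 3.93 in whole embryos, 3.98 in left, 3.97 in right, 3.87 in dorsal and 3.84 in ventral half-embryos. The direction turned in at least 1 library of stage 12 in 2 pairs, among them itpa-like, and both had been under 4-fold in some half-embryos of stage 10.5. Among the rest, rbm26 was under 4-fold in 11 of 15 libraries, pan2-like (PAN2, a subunit of a poly(A) nuclease) in 10 and wiz-like in 6.

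The change of bias from stage 10.5 to stage 12 was tested in half-embryos with limma, over the 2885 pairs listed at both stages. The values of the 4 half-embryo libraries with the same replicate number were averaged, which gave 3 values per stage. Of the 81 members, 21 were called at an adjusted p of 0.05 or less, against 12.1% of all pairs. The bias became smaller in 16 and larger in 5, where 8.59% and 4.13% of the pairs with a copy at 10 RPKM or more were called in these directions. The pairs were chosen for a large bias at stage 10.5, in whole embryos that share replicate numbers with these half-embryos. The excess of smaller over larger bias is therefore not independent of that choice. The test also left out the 19 of 100 members whose lower copy was not listed at stage 12, beside 83 of all 2167 pairs. Pairs whose lower copy fell below the listing limit could thus not be called for a larger bias. The part of this in the excess was not tested. The median change over all 81 was -0.07 toward the higher copy (-0.06 over 2084 pairs). Of the 81, 46 moved to a smaller bias, beside 1160 of the 2084 pairs. With the replicate number as a block 33 members were called, against 33.4% of all pairs. Leaving out 1 of the 6 averaged values gave 1 to 16 members, beside 0.589% to 8.25% of all pairs. The fewest, 1, was obtained without stage 10.5 replicate 1, and 3 were called without stage 12 replicate 1 or 2, so the number of calls rests on single replicates.

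**Figure D3:**
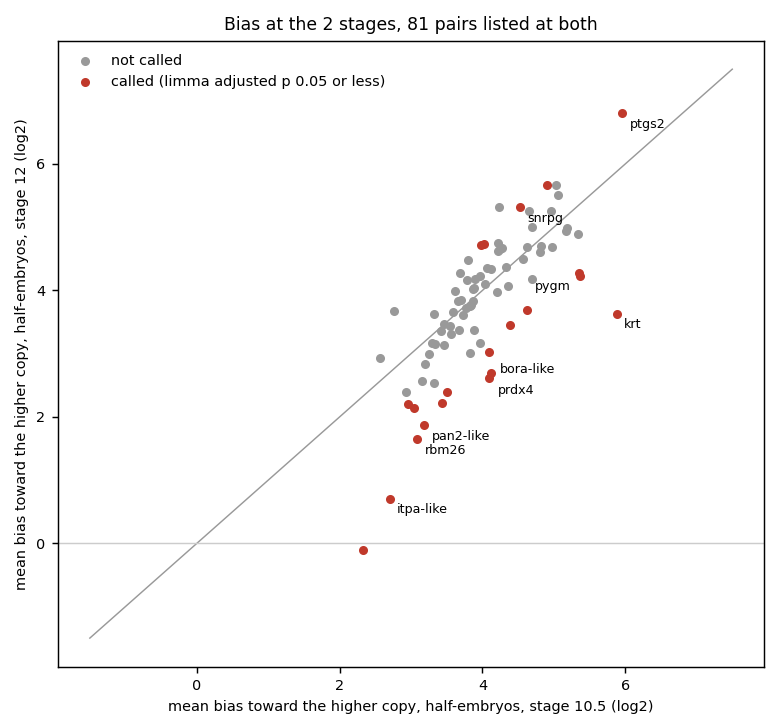
Mean bias toward the copy that was higher in whole embryos of stage 10.5, in half-embryos of stage 10.5 (x axis) and of stage 12 (y axis), as log2 ratios of RPKM + 1, for the 81 pairs listed at both stages; red points are the 21 pairs called by limma and the line marks equal bias. Of the red points 16 lie below the line, krt and itpa-like among them, and 5 lie above it, with ptgs2 at the top right.

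The keratin pair krt changed most clearly. Type I keratins form the intermediate filaments of epithelia, and the embryonic epidermis starts to express them during gastrulation. At stage 10.5 krt.L stood at 25.7, 7.51 and 2.65 RPKM in left, 17.9, 10.3 and 1.84 in right, 0.444, 1.63 and 4.29 in dorsal and 3.09, 15.7 and 55.2 in ventral half-embryos. At stage 12 the same copy stood at 178, 184 and 135 RPKM in left, 187, 39.1 and 103 in right, 18.2, 8.42 and 18.5 in dorsal and 289, 186 and 155 in ventral half-embryos. In each of these 4 groups every library of stage 12 was above every library of stage 10.5. krt.S was already at 277 to 789 RPKM in the half-embryos of stage 10.5 and reached 435 to 2259 RPKM at stage 12.

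Both keratin copies rose, by 3.44 ± 0.23 (log2 change ± SE) for krt.L and 1.19 ± 0.19 for krt.S (limma adjusted p of 0.0039 and 0.00627). The bias toward S therefore fell by 2.25 ± 0.15 on the log2 scale (limma adjusted p = 0.00212), and of the 21 calls this one alone remained in all 6 fits that left out a replicate. krt.S nonetheless stayed the higher copy in all 30 libraries. The closest human protein was KRT19 for L and KRT17 for S, so the change may not be one between strict homeologs.

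In itpa-like, a match of the inosine triphosphatase ITPA that clears faulty nucleotides, the lower copy rose to near the level of the other in RPKM. itpa-like.L stood at 0.948, 0.895 and 1.36 RPKM in whole embryos of stage 10.5 and at 9.59, 11.4 and 6.87 RPKM in those of stage 12. In half-embryos it ranged from 0.719 to 7.23 RPKM at stage 10.5 and from 5.97 to 23.4 RPKM at stage 12, so the stages overlapped. itpa-like.S ranged from 22.2 to 46.9 and from 17.8 to 29.0 RPKM. In reads the L copy had a median of 10 (2 to 17) at stage 10.5 and 30 (9 to 43) at stage 12. The S copy had a median of 103 (72 to 155) and 57 (27 to 109), so how close the copies come depends on the model lengths. The L copy was above the S copy in 2 of 15 libraries of stage 12. Its change was 1.58 ± 0.32 (adjusted p = 0.0105), that of S was -0.43 ± 0.15 (adjusted p = 0.0622), and the bias changed by 2.00 ± 0.30 toward L (limma adjusted p = 0.0164, and 0.0501 without stage 10.5 replicate 1).

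In the L-led pair gatm, the lower copy rose. gatm encodes the mitochondrial enzyme of the first step of creatine synthesis, and gatm.S went from 11.0 to 22.9 RPKM in half-embryos of stage 10.5 to 18.5 to 78.2 at stage 12, with an overlap. The log2 change of this S copy was 1.34 ± 0.28 (limma adjusted p = 0.0114), and the bias toward L fell by 0.93 ± 0.17 (adjusted p = 0.021). The L copy was not called, at 0.41 ± 0.16. The bias call was lost in 4 of the 6 fits without a replicate, with adjusted p up to 0.075.

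In other pairs the higher copy fell. The L copy of Xetrov90012236m, a match of the actin-associated protein gene IVNS1ABP, went from 24.3 to 59.4 RPKM in half-embryos of stage 10.5 to 8.46 to 14.1 at stage 12, without overlap. znf518b.L, a zinc finger gene, went from 28.4 to 54.5 to 8.24 to 17.4 RPKM, also without overlap. Their log2 changes were -1.86 ± 0.23 and -1.56 ± 0.18 (limma adjusted p = 0.00536 for each), and their bias toward L fell by 1.22 ± 0.22 and 1.11 ± 0.25 (adjusted p of 0.021 and 0.0326). The S copy of Xetrov90012236m fell too, by 0.64 ± 0.19 (adjusted p = 0.0362), and the bias call of this pair was lost in 4 of the 6 fits, with adjusted p up to 0.0745. In reads over the 15 libraries of a stage, the medians went from 606 to 106 for its L copy and from 37 to 10 for its S copy. With both copies falling, the size of the fall in bias depends on the 1 added to each RPKM.

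A smaller bias was also called in pygm (change of 1.13 ± 0.20 toward L), pan2-like (1.32 ± 0.23) and rbm26 (1.44 ± 0.27), which are S-led, and in tstd3 (-0.94 ± 0.20) and ncbp1, a subunit of the nuclear cap-binding complex (-0.75 ± 0.16), which are L-led. Their adjusted p-values lay between 0.021 and 0.0316, and each was lost in 3 to 5 of the 6 fits without a replicate. Smaller biases were called as well in the S-led prdx4, a peroxiredoxin gene (1.48 ± 0.33), and bora-like (1.42 ± 0.37), and the L-led cib1 (-1.07 ± 0.25) and wiz-like (-0.90 ± 0.21). The bias became larger in ptgs2 (by 0.84 ± 0.21), snrpg (0.78 ± 0.18), LOC100486548 (0.77 ± 0.18, no human match), LOC734097-like (0.75 ± 0.15) and utp23, a factor of ribosome assembly (0.72 ± 0.18), with adjusted p-values of 0.0267 to 0.0433. In ptgs2 the S copy rose by 0.92 ± 0.12 (adjusted p = 0.00536) and the L copy was not called (0.08 ± 0.23). Among the 21 pairs, both copies were called in 3, the higher copy alone in 10, the lower copy alone in 5 and neither in 3.

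Each copy was also tested on its own for the stage change. The stages came as separate tables, so these changes assume that RPKM is comparable between them. The ratio of copies within a library depends on this less, through the 1 added to each RPKM, which matters most for low copies. Of 181 member copies, 66 were called (24 up and 42 down), against 35.3% of all 14947 genes (9.81% up and 25.5% down), so the members changed about as often as other genes. The median change over all genes was -0.21, and with upper-quartile scaling the 66 became 59 calls with 34 up and 25 down. With the replicate block 101 of 181 copies were called, against 49.7% of all genes. Among the higher copies 48 of 100 were called and among the lower copies 18 of 81. Lower copies rested on few reads, and the part of this in their lower count was not tested. These counts therefore do not show that higher copies change more often. Cyclin E2 fell in both copies, ccne2.L by 0.86 ± 0.11 and ccne2.S by 0.74 ± 0.15 (limma adjusted p of 0.00536 and 0.0119), and its bias was not called (-0.12 ± 0.17, adjusted p = 0.671). For mcm2 neither copy was called (-0.23 ± 0.11 and -0.19 ± 0.16). psma3.L rose by 0.57 ± 0.15 (adjusted p = 0.0221), beside 0.50 ± 0.19 in psma3.S, which was not called. Further calls with the smallest p were a rise of LOC100486548.L (1.33 ± 0.17) and of LOC100497528.S (0.68 ± 0.10), and a fall of cmtm7.L (-1.48 ± 0.15), vps35.S (-1.06 ± 0.15) and bora-like.S (-0.98 ± 0.15), the last a match of the mitotic regulator BORA.

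**Figure D4:**
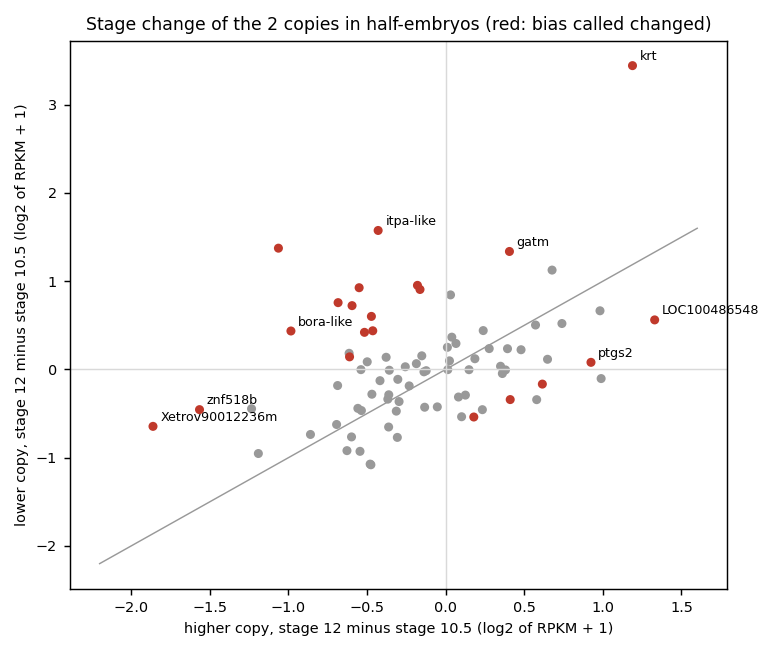
Log2 change from stage 10.5 to stage 12 in half-embryos of the higher copy (x axis) and of the lower copy (y axis) of the 81 pairs, on the log2(RPKM + 1) scale; red points are the 21 pairs whose bias was called changed and the line marks equal change of both copies. The keratin pair stands apart at 1.19 and 3.44, and itpa-like lies at the upper left, where the lower copy is higher at stage 12 and the higher copy is lower.

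Dorsal and ventral half-embryos were compared to ask whether the balance of copies differed between the sides. At stage 10.5, 0 of 100 members were called for a difference of bias (limma), against 0.214% of all 3266 pairs, and 9 had an unadjusted p under 0.05, against 4.13% of all. With the replicate number as a block 2 were called, against 1.01% of all pairs in that fit. gatm was more L-biased dorsally by 0.75 ± 0.14 (adjusted p = 0.0233 in the blocked fit), and so was sds, a serine dehydratase gene, by 1.16 ± 0.23 (adjusted p = 0.0283). Over all members the dorsal minus ventral difference had a median of 0.05, with extremes of -1.64 and 1.21 and a median SE of 0.31.

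At stage 12 the keratin pair, whose entries may not be strict homeologs, was the 1 call among 81 members, against 0.992% of all 3025 pairs. krt.L stood at 18.2, 8.42 and 18.5 RPKM in dorsal and 289, 186 and 155 RPKM in ventral half-embryos, and krt.S at 723, 435 and 705 and 2259, 1206 and 1699 RPKM. Both copies were lower in all dorsal than in all ventral libraries. The dorsal minus ventral difference was -3.74 ± 0.47 for krt.L and -1.46 ± 0.28 for krt.S (limma adjusted p of 0.000896 and 0.00833, the latter 0.0547 without ventral replicate 1). The bias toward S was thus larger dorsally by 2.28 ± 0.32 (adjusted p = 0.0046), and the call remained without each of the 6 libraries in turn, at -2.49 to -2.11. At stage 10.5 the same difference was -1.64 ± 0.97 and was not called, with ventral krt.L values of 3.09, 15.7 and 55.2 RPKM spanning the largest range of any group of that stage. Within same-numbered libraries krt.L was lower dorsally in 3 of 3 and the bias was more toward S dorsally in 3 of 3, with dorsal minus ventral differences of bias from -2.31 to -0.62 on the log2 scale, and neither was called with the replicate block (limma adjusted p of 0.458 and 0.776). The change of the dorsal minus ventral difference between stages was called in 0 of 2885 pairs by limma. An unadjusted p under 0.05 was found in 2 of 81 members, beside 69 of the 2885 pairs. In the blocked fit for stage 12, gatm (1.09 ± 0.21, adjusted p = 0.0142) and LOC100497528 (-1.75 ± 0.41, adjusted p = 0.0404) were called as well, which makes 3 of 81 against 2.38% of all pairs.

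In ptgs2, whose product makes the precursor of the prostaglandins, the S copy differed between the sides. At stage 10.5 ptgs2.S stood at 82.9, 78.4 and 79.9 RPKM in dorsal and 174, 126 and 189.6 RPKM in ventral half-embryos, with left at 133, 111 and 116 and right at 119, 121 and 159 RPKM. At stage 12 it stood at 161, 118 and 159 RPKM in dorsal and 531, 349 and 385 RPKM in ventral half-embryos. The dorsal and ventral libraries did not overlap at either stage. ptgs2.L lay between 0 and 2.79 RPKM in all 30 libraries. Its dorsal minus ventral difference was -0.21 ± 0.25 at stage 10.5 and -0.47 ± 0.36 at stage 12, not called at either. The S copy was lower dorsally by 0.99 ± 0.15 at stage 10.5 and by 1.52 ± 0.22 at stage 12 (limma adjusted p of 0.005 and 0.00166, the former 0.0583 with the dorsal and ventral libraries alone in the fit), while the bias difference was not called (0.79 ± 0.23 and 1.04 ± 0.33, adjusted p of 0.371 and 0.209).

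ptgs2.S was the 1 call among 200 member copies between dorsal and ventral half-embryos of stage 10.5, against 0.99% of all 16672 genes, and 6 were called with the replicate block, against 2.17% of all genes in that fit: ptgs2.S, krt.S (-0.88 ± 0.15), gatm.L (0.45 ± 0.09), LOC100497528.S (0.71 ± 0.16), LOC100127584-like.L (0.74 ± 0.14) and sds.L (1.42 ± 0.18). At stage 12, 4 of 181 were called, against 3.76% of 15594 genes, and 5 with the replicate block, against 5.76%. They were both krt copies, ptgs2.S and LOC100127584-like.L, a match of the kinase anchor AKAP12. That copy stood at 106, 87.7 and 97.9 RPKM in dorsal and 47.3, 58.0 and 65.2 RPKM in ventral half-embryos, higher in all 3 dorsal libraries, and the difference was 0.77 ± 0.16 (limma adjusted p = 0.0146). That call was lost without dorsal replicate 1, dorsal replicate 3 or ventral replicate 1, the highest of these adjusted p-values being 0.0888.

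**Figure D5:**
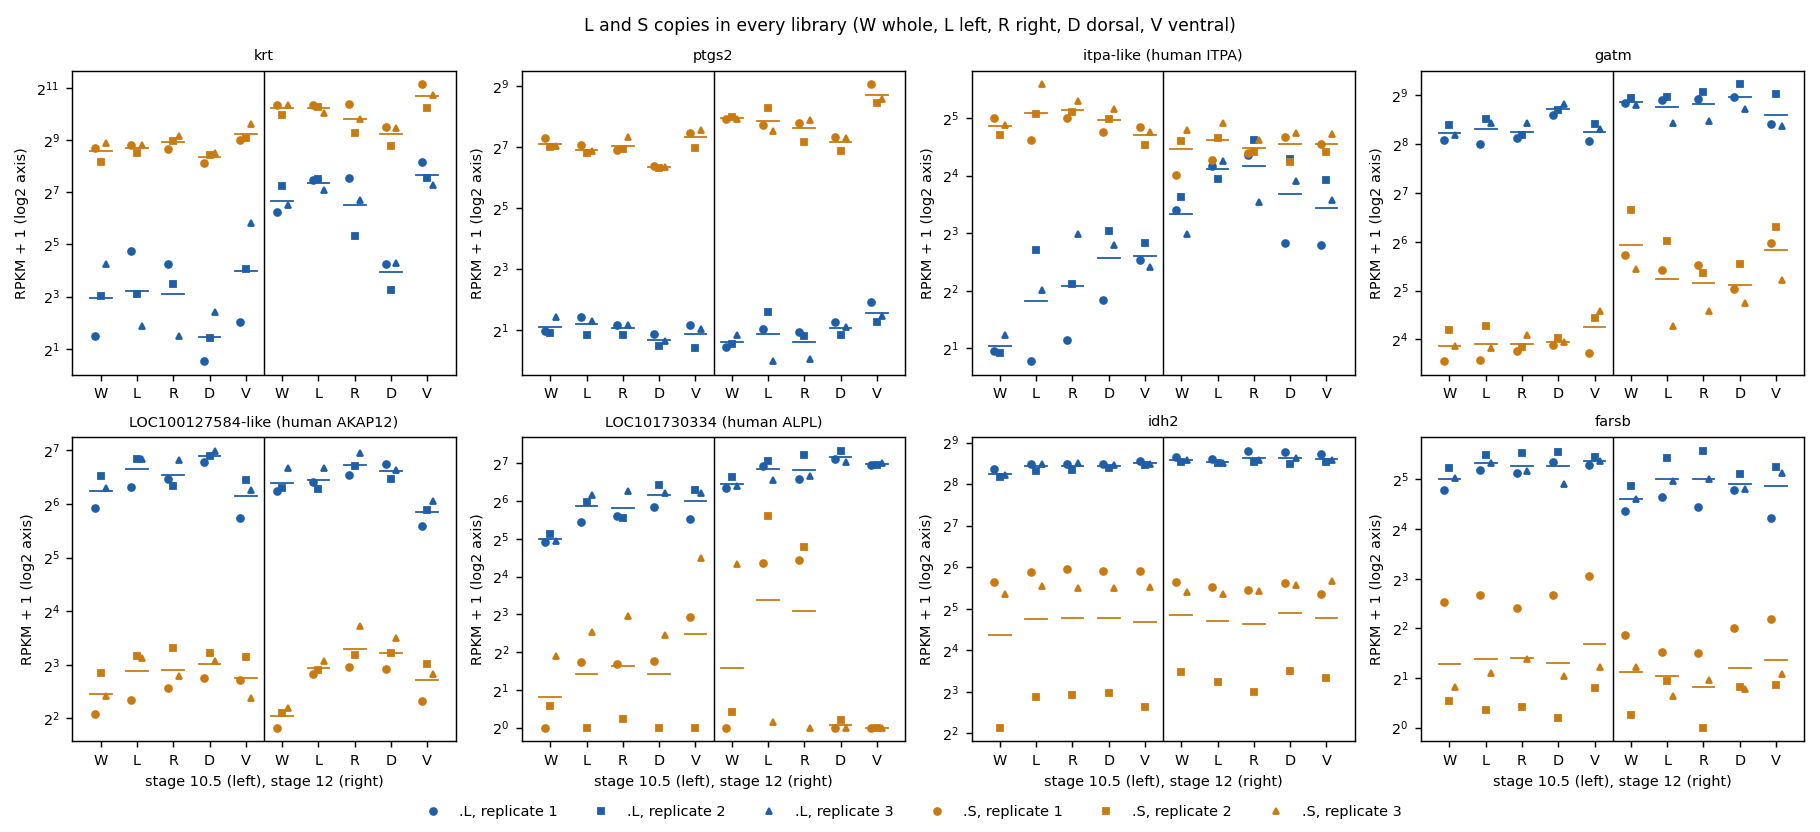
RPKM + 1 (log2 axis) of the L copy (blue) and the S copy (orange) of 8 pairs in every library, by group (W whole, L left, R right, D dorsal, V ventral) at stage 10.5 and, right of the line, at stage 12; symbols mark the replicate number and bars the group mean on the log2 scale. In krt both copies are higher at stage 12 than at stage 10.5 and, at stage 12, lowest in dorsal half-embryos, in itpa-like the copies come close at stage 12, and in idh2 replicate 2 lies apart in every group.

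Between left and right half-embryos no difference of bias was called. By limma 0 of 100 members were called at stage 10.5 and 0 of 81 at stage 12, beside 0 of all pairs (0%) at both stages. The unadjusted p was under 0.05 in 1 and 2 members, against 0.521% and 1.06% of all pairs. The left minus right differences of the members ran from -0.75 to 0.53 at stage 10.5 (median SE 0.31) and from -1.18 to 0.45 at stage 12 (median SE 0.32), so small differences in single pairs were not detectable.

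Half-embryos were compared with whole embryos at stage 12 alone, since the whole embryos of stage 10.5 chose the pairs. The bias differed in 1 of 81 members, against 0.86% of all 3025 pairs. This was LOC100127584-like, the AKAP12 match. Its S copy stood at 2.55, 3.29 and 3.58 RPKM in whole embryos and at 6.10, 6.52 and 7.39 in left, 6.82, 8.05 and 12.2 in right, 6.54, 8.29 and 10.4 in dorsal and 4.01, 7.04 and 6.09 in ventral half-embryos. Every half-embryo library was above every whole-embryo library. Its L copy stood at 74.5, 77.5 and 101 RPKM in whole embryos and at 47.3 to 122 in half-embryos, on both sides of the whole embryos. The S copy was higher in half-embryos by 1.00 ± 0.19, the L copy differed by 0.01 ± 0.13, and the bias toward L was smaller by 0.99 ± 0.17 (limma adjusted p of 0.0194, 0.985 and 0.0169).

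In the same comparison 6 of 181 member copies were called, against 2.78% of 15594 genes. Beside the AKAP12 match, mcm2.S (0.68 ± 0.14), chmp1b.L, of the ESCRT membrane machinery (0.80 ± 0.19), and sgk1.L, a kinase gene (0.90 ± 0.22), were higher in half-embryos, and cmtm7.L (-0.74 ± 0.14) and the cilium gene arl13b.L (-0.69 ± 0.14) were lower, with adjusted p-values of 0.0207 to 0.0461. Whole-embryo libraries of stage 12 held 2091772 to 2920488 reads and half-embryo libraries 2526910 to 5071874, so the ranges of depth overlapped. In replicates 1 and 3, however, the whole-embryo library held fewer reads than each same-numbered half-embryo library. The part of depth in these calls was not tested. Neither the bias call nor any of these copy calls remained without whole replicate 1 or without whole replicate 3, where the counts were 0. With the replicate block 8 pairs and 27 copies were called, against 6.48% of all pairs and 12.9% of all genes in those fits. The pairs were gs17, gtf2b, hpgds, LOC100127584-like, pygm, sgk1, Xetrov90012236m and znf518b, with differences from -1.31 in hpgds to 1.27 in gs17.

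Same-numbered libraries of a stage deviated from their group means together, and in some pairs the bias followed the replicate number. In 32 of 100 members the 4 half-embryo libraries of 1 number lay wholly above or wholly below the other 8 at stage 10.5, against 36.6% of 2167 pairs, and in 12 of 81 at stage 12, against 22.2%. In 7 of 81 the same number stood apart in the same direction at both stages, against 9.26% of 2084 pairs. These shares were near or below those of all pairs, but the gap reached 1 or more on the log2 scale in 4 of 100 members at stage 10.5 (1.29% of all) and in 2 of 81 at stage 12 (0.48%). The cause was not tested. The pairs named next were chosen after their values were seen.

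In idh2, the mitochondrial isocitrate dehydrogenase that makes NADPH, the S copy of replicate 2 was low in every group. idh2.S stood at 49.1, 3.40 and 39.9 RPKM in the 3 whole-embryo libraries of stage 10.5, in replicate order, and at 57.6, 6.30 and 46.0 in left and 58.6, 6.81 and 43.9 in dorsal half-embryos. At stage 12 it stood at 48.8, 10.1 and 41.6 RPKM in whole embryos, 42.9, 6.91 and 42.2 in right and 40.0, 9.07 and 49.8 in ventral half-embryos. idh2.L showed no such step, at 288 to 374 RPKM over the 15 libraries of stage 10.5 and 356 to 443 at stage 12. The mean bias of half-embryos at stage 10.5 was 2.59, 5.53 and 2.97 in replicates 1, 2 and 3, and 3.23, 5.25 and 3.07 at stage 12. The score of 3.27 that placed idh2 among the members is thus an average over unlike replicates.

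In farsb, the beta subunit of the phenylalanine tRNA ligase, replicate 1 had the smaller bias at both stages. farsb.S stood at 5.40, 0.283 and 1.15 RPKM in left and 7.36, 0.732 and 1.32 RPKM in ventral half-embryos of stage 10.5, in replicate order. Its mean bias was 2.53, 5.07 and 4.01 at stage 10.5 and 2.71, 4.69 and 4.12 at stage 12. The H2B pair LOC733561 behaved alike, with the lower copy L at 57.8, 14.2 and 13.0 RPKM in dorsal half-embryos of stage 10.5 and 33.4, 8.28 and 4.31 at stage 12, and a mean bias of 2.41, 4.05 and 4.38 at stage 10.5. The remaining pairs with the same number apart at both stages were mrpl3, anxa3, LOC100487796-like and zc3h7b.

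The bias of the members varied more between libraries than that of other pairs, with a median SD over the 12 half-embryo libraries of stage 10.5 of 0.385 against 0.258. Lower copies rested on few reads, and their part in this spread was not tested. Among the 4 widest ranges over the 30 libraries were 5.67 in LOC101730334, 4.96 in krt and 4.23 in itpa-like, all on the log2 scale. LOC101730334 is a match of the alkaline phosphatase gene ALPL. LOC101730334.S stood at 19.5, 47.5 and 0.113 RPKM in left and 20.7, 26.7 and 0 RPKM in right half-embryos of stage 12, at 0, 0.156 and 0 RPKM in dorsal and 0, 0 and 0 RPKM in ventral half-embryos, and at 0, 0.324 and 19.2 RPKM in whole embryos. At stage 12 it was thus near 0 in all 6 dorsal and ventral libraries and high in replicates 1 and 2 of left and right and in replicate 3 of the whole embryos. LOC101730334.L was at 79.7 to 159 RPKM in all 15 libraries, and its bias was not called in any of the 6 comparisons. At stage 10.5 the lowest bias of the 12 half-embryo libraries, 1.73, was in ventral replicate 3, so the S copy was not near 0 there.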

How the data were processed

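Poly(A) RNA libraries (TruSeq V2, a kit that keeps no strand) were sequenced as single-end reads, per the labels' protocols. For each stage there is 1 table, in which the authors give RPKM for JGI9.1 laevis gene models and list genes with an average RPKM above 1, per the file headers. TopHat2 2.09 and DESeq appear in the submitters' processing notes. The counting tool, and how reads shared by near-identical homeologs were assigned, are not given in the sources used here.

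RPKM values were used as deposited, and reads were recovered as whole multiples of a step per gene (100% of genes at both stages, relative tolerance 3e-09). They describe depth and model lengths; the ratio of the model lengths was equal within 1% in both tables for 81 of 81 pairs. Bias was log2(RPKM L + 1) minus log2(RPKM S + 1) within a library. Library scaling cancels in it except through the pseudocount of 1, which matters most for low copies and understates their bias. Tests were two-sided and used limma 3.58.1 (trend) in R 4.3.3, over all pairs, or over all genes at 1 RPKM or more in at least 3 libraries, with 15 libraries of a stage in 1 fit and Benjamini-Hochberg adjusted p-values called at 0.05. All adjusted p-values are limma's. A run on simulated data recovered seeded changes, but no recovery or false-call rate is given for it. Same-numbered libraries of these data deviated together, and no rate is given for that case either. The run therefore cannot show how reliable the calls of each fit are. Alternatives were a pseudocount of 0.1, other low-value filters, upper-quartile scaling, a replicate block, fewer or unaveraged libraries, leaving out each replicate and, chosen after seeing the data, another variance trend.

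Replicate numbers pair the samples: each control's label names the same-numbered half-embryos. Deviations from group means correlated at 0.414 or more between same-numbered libraries at stage 10.5 and 0.274 or more at stage 12. Other pairs of libraries lay at -0.157 or less and -0.0832 or less. Deviations within a group cancel, so positive same-numbered values make the others negative on average, and the negative values add no support. Members and lists were chosen with earlier results of these data known. The text names the 10 top pairs per direction, up to 6 called members per contrast and direction, list members, turned pairs, pairs at the edge of the ranking and the 4 widest ranges; the other called pairs and those that follow a replicate number were named after their values were seen. A few items that this rule would name are not reported here. Sequences and coordinates were not used here.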

Additional observations from a re-analysis of the deposited data

How the results depend on the processing

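Counts of called members among the pairs and copies kept within 1.5 times of the values given in 117 of 142 fits, and named pairs and copies kept their direction in all fits, with the call kept in 398 and lost in 86. The replicate block raised the calls of pair bias to 2 (dorsal minus ventral, stage 10.5), 3 (the same at stage 12), 8 (half-embryos minus whole, stage 12) and 33 (stage change), and those of copies to 6 and 27 (dorsal minus ventral at stage 10.5 and half-embryos minus whole) and 101 (stage change). It changed no other count of members beyond 1.5 times. Counts over all pairs or genes shifted beyond 1.5 times in 56 of 134 fits. With the 24 half-embryo libraries as separate values the stage change called 34 pairs and 118 copies, against 45% of all pairs and 63.9% of all genes. With the libraries of the groups compared alone, 2 copies were called between dorsal and ventral half-embryos of stage 10.5, against 0.606% of all genes. In that fit ptgs2.S had a limma adjusted p of 0.0583. Leaving out 1 library gave 1 to 2 pairs and 2 to 5 copies for dorsal minus ventral at stage 12, and 0 to 2 pairs and 0 to 9 copies for half-embryos minus whole (at most 1.06% of all pairs and 0.263% to 4.3% of all genes). Leaving out 1 averaged replicate gave 1 to 16 pairs and 36 to 58 copies for the stage change (0.589% to 8.25% of all pairs and 19.2% to 33.2% of all genes). Those fits had fewer samples. For the other shifts the cause was not tested. A pseudocount of 0.1 called 14 pairs for the stage change (11% of all pairs) and shared 89 of the 100 members. Lower copies resting on few reads limit what could be seen in single pairs.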
